A study of Homo sapiens with 24 samples.

Results

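Peaks at the ends of 8 human chromosomes were described: peaks of chromatin immunoprecipitation sequencing (ChIP-seq) whose midpoint lay in windows at 1p36.3, 9q34.2-q34.3, 11p15.5, 16p13.3, 17q25.3, 19p13.3, 20q13.33 and 22q13.33. In GRCh37, in Mb, the windows were 0 to 4 on chromosome 1, 136 to 141.3 on 9, 0 to 3 on 11, 0 to 4 on 16, 76 to 81.3 on 17, 0 to 5 on 19, 60 to 63.1 on 20 and 49 to 51.4 on 22. They held 978 of the 13347 peaks in 8 lists (7.33%) on 31.2 Mb, which is 1.03% of the 3030 Mb spanned by the peaks. The windows were chosen by where the peaks of these same lists lie, so their excess over length is a description and is tested nowhere below. The name these regions carry, gene-dense and GC-rich chromosome ends, could not be checked against the data, because the lists hold neither sequence nor genes.

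The terminal light-staining bands of several human chromosomes are known for closely packed genes, GC-rich DNA and many CpG islands. Each of the 8 bands carries well-known genes, given here as background and not assigned to any peak. AGRN, ISG15, SKI, TP73 and PRDM16 lie at 1p36.3. NOTCH1, which encodes a receptor of cell-to-cell signalling, lies at 9q34.2-q34.3 with TRAF2, EHMT1 and RXRA. The growth-factor gene IGF2, the noncoding RNA gene H19, the cell-cycle inhibitor gene CDKN1C and KCNQ1 form the imprinted region of 11p15.5, a band that also carries HRAS and MUC2. HBA1, AXIN1, TSC2, PKD1 and CREBBP lie at 16p13.3, and BIRC5, SOCS3, FASN, ACTG1 and RPTOR at 17q25.3. STK11, a tumour-suppressor kinase gene often lost in lung adenocarcinoma, lies at 19p13.3 with TCF3, GNA11, DOT1L and MAP2K2. GATA5, LAMA5, RTEL1 and SOX18 lie at 20q13.33, and SHANK3, BRD1, PLXNB2 and HDAC10 at 22q13.33.

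The cells were HCC827, a human lung adenocarcinoma line that carries an activating mutation and extra copies of EGFR on chromosome 7. They were wild-type or overexpressed METTL7A-MYC-tag-FLAG, a tagged form of the methyltransferase-like protein METTL7A, and are called METTL7A cells below. They were either untreated parental cells or osimertinib-resistant cells (HCC827-OR) kept in 1 µM osimertinib, an inhibitor of mutant EGFR. Chromatin was precipitated with an antibody against the MYC tag or with an IgG isotype control, which has no chromatin target of its own. Wild-type cells carry no tagged protein by their label, and a MYC-tag antibody can also bind endogenous MYC, the protein from which the tag sequence is taken. The 24 samples form 12 groups of 2, of which 8 groups (16 samples) stand behind the 8 lists, 1 list for each combination of state, genotype and antibody. The 8 input samples have no list of their own here, and whether they served as controls in peak calling is not given in the sources used here. The labels do not say whether METTL7A overexpression came from 1 clone or a pool of cells.

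Each list holds peaks called in both replicates of a group and matched between them, here called matched peaks, and it gives no value for a single replicate's own peak set. A peak's height is the authors' −log10 p in whichever replicate had the smaller value. A peak is called reproducible where its global irreproducible discovery rate (IDR, the expected share of irreproducible peaks among those at least as well matched) is 0.05 or less. For parental cells the lists of wild-type chromatin held 1444 IgG and 1005 MYC-tag peaks and those of METTL7A chromatin 70 and 2271. For resistant cells they held 2529 and 2767, and 96 and 3165. The 2 short lists, both METTL7A IgG, carry 8 window peaks between them, so that every ratio against them rests on very few peaks. Chromosome 7 held from 10% (parental METTL7A IgG) to 30.2% (resistant METTL7A IgG) of a list, which lowers the share left for all other regions. The depth behind the peaks is unknown from the files. Intervals below are exact 95% intervals that cover counting error only; neighbouring peaks are not independent, and no error between replicates can be had from a list that combines both.

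The windows held many times their share of length in both antibodies, and the IgG lists of wild-type cells were among the highest. In parental wild-type cells 148 of 1444 IgG peaks lay in the windows (10.2%, 8.73 to 11.9), 9.95 times their share of length. The MYC-tag list of those cells had 56 of 1005 there (5.57%, 4.24 to 7.18), 5.41 times. In resistant wild-type cells the IgG list had 207 of 2529 (8.19%, 7.15 to 9.32) and the MYC-tag list 127 of 2767 (4.59%, 3.84 to 5.44), which are 7.95 and 4.46 times the share of length. In both cell states the control antibody had the higher share of its peaks at these chromosome ends, with intervals that did not overlap, although in parental cells this did not hold with each 100 kb bin counted once or over peaks with a height of 5 or more.

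METTL7A cells gave another order. Their parental MYC-tag list had 133 of 2271 peaks in the windows (5.86%, 4.93 to 6.90; 5.69 times the share of length), and their resistant MYC-tag list had 299 of 3165 (9.45%, 8.45 to 10.5; 9.17 times). The IgG lists of the same cells had 6 of 70 (8.57%, 3.21 to 17.7) and 2 of 96 (2.08%, 0.253 to 7.32). Among the 4 MYC-tag lists the resistant METTL7A list stood above the others, whose shares lay between 4.59% and 5.86% with overlapping intervals. With each 100 kb bin counted once the fold of the resistant METTL7A list was 6.98 (5.91 to 8.17). That interval overlapped those of the parental MYC-tag lists, at 5.98 (4.46 to 7.83) in wild-type and 5.14 (4.09 to 6.37) in METTL7A cells. Resistant wild-type MYC-tag lay below it at 3.98 (3.21 to 4.87).

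**Figure D1:**
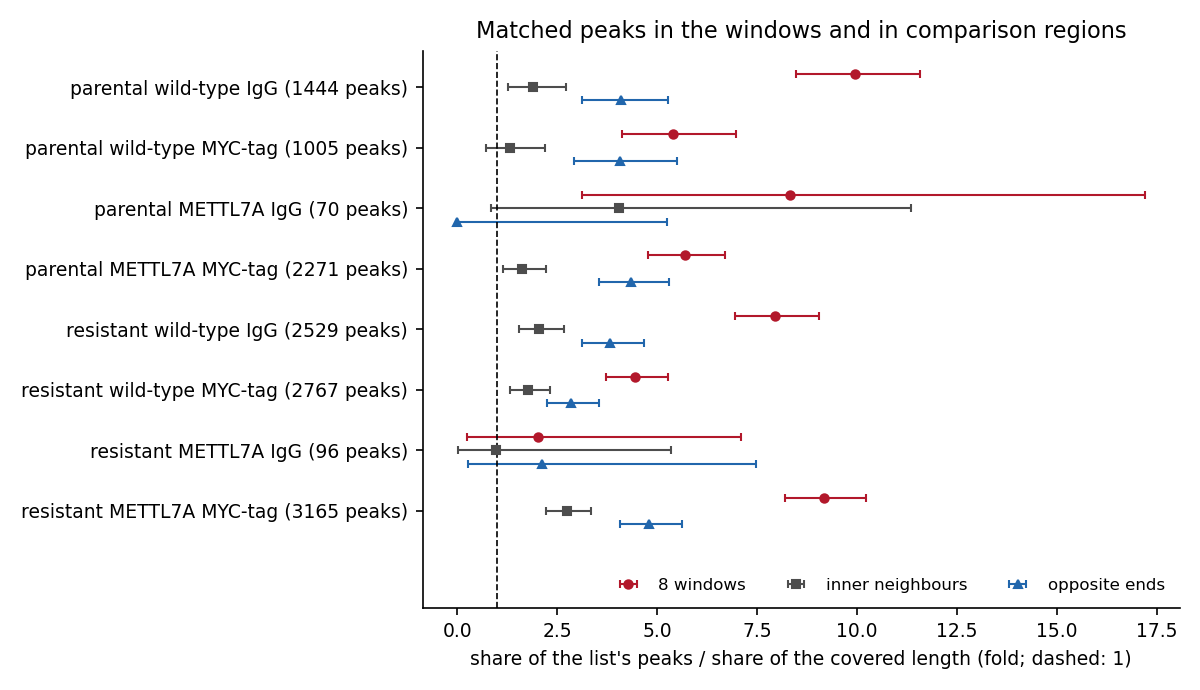
Fold of each list's share of matched peaks over the share of length (x axis) in the 8 windows, in inner neighbours (the stretch of equal length next to each window) and at the opposite ends of 7 of the chromosomes, for the 8 lists (y axis). Bars are exact 95% intervals for counting error. The windows lie at 9.95 and 7.95 in the wild-type IgG lists and at 9.17 in the resistant METTL7A MYC-tag list, while the other long lists lie between 4.46 and 5.69.

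Set against IgG of the same cells, the odds that a MYC-tag peak lay in the windows were lower in both wild-type pairs. The odds ratio was 0.517 in parental (0.369 to 0.716) and 0.540 in resistant wild-type cells (0.426 to 0.681). With each 100 kb bin counted once the parental ratio was 0.752 (0.515 to 1.09), and over peaks with a height of 5 or more it was 0.529 (0.215 to 1.23), so that both intervals span 1. In parental METTL7A cells it was 0.664, with an interval from 0.281 to 1.91 that spans 1. In resistant METTL7A cells it was 4.90 (1.31 to 41.3), but with only 2 IgG peaks in the windows, and 3.10 (0.815 to 26.3) with each bin counted once. When the IgG lists of both genotypes were joined, an alternative chosen after seeing the data, the resistant METTL7A ratio was 1.21 (0.999 to 1.46). The parental METTL7A ratio was then 0.549 (0.428 to 0.705), an interval below 1. The wild-type ratios were 0.521 in parental and 0.556 in resistant cells. Joined IgG peaks came mostly from wild-type cells.

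Between genotypes, the MYC-tag shares lay apart in resistant cells, while in parental cells no difference was detectable. The odds ratio of METTL7A over wild-type was 1.05 in parental cells, with an interval from 0.758 to 1.48. In resistant cells it was 2.17 (1.74 to 2.71), and 2.60 (1.52 to 4.70) over peaks with a height of 5 or more. With each 100 kb bin counted once it was 1.81 (1.37 to 2.41). At the opposite chromosome ends, which are no part of the windows, the same comparison gave 1.73 (1.30 to 2.31) in resistant and 1.08 (0.731 to 1.61) in parental cells. In the inner neighbours it gave 1.56 (1.10 to 2.25) and 1.24 (0.653 to 2.48), so the difference in resistant cells was also seen outside the windows. Over peaks with a height of 5 or more, resistant cells gave 1.82 (0.971 to 3.68) at the opposite ends. The inner neighbours then gave 1.32 (0.537 to 3.70), and both intervals span 1. For IgG the METTL7A over wild-type ratio was 0.821 (0.286 to 1.93) in parental and 0.239 (0.0283 to 0.898) in resistant cells, again with 6 and 2 METTL7A peaks. The resistant value came to span 1 with chromosome 7 left out (0.304, 0.0358 to 1.158) and with each 100 kb bin counted once (0.380, 0.0447 to 1.45).

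Between cell states, the resistant MYC-tag list of METTL7A cells exceeded the parental one, with an odds ratio of 1.68 (1.35 to 2.09). It was 1.38 (1.03 to 1.86) with each 100 kb bin counted once. The MYC-tag lists of wild-type cells gave 0.815, with an interval from 0.585 to 1.15 that spans 1. With each 100 kb bin counted once that ratio was 0.650 (0.449 to 0.951). Wild-type IgG gave 0.781 (0.622 to 0.982), which became 1.01 (0.588 to 1.80) over peaks with a height of 5 or more and 0.754 (0.566 to 1.005) with each bin counted once. At the opposite ends the METTL7A MYC-tag ratio was 1.11 (0.846 to 1.45), and in the inner neighbours it was 1.71 (1.161 to 2.57), close to the value in the windows.

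The excess at the window ends was highest in the second Mb from the tip in each of the 6 long lists and was lower further inward. Inner neighbours of equal length held 1.32 to 2.74 times their share of length in the 6 long lists, and the opposite ends of chromosomes 1, 9, 11, 16, 17, 19 and 20 held 2.84 to 4.803 times theirs. In the parental wild-type IgG list the outermost Mb of the 8 window ends stood at 10.5 times the share of length, the next at 15.7, the third at 7.61 and the fourth at 2.89. In the parental METTL7A MYC-tag list the same 4 steps gave 6.34, 6.67, 4.34 and 2.84. In resistant METTL7A MYC-tag they gave 7.06, 10.9, 9.93 and 7.06. There the outer 2 Mb (8.98) and the next 2 Mb (8.50) stood close, so no clear fall is shown within the first 4 Mb. Over the outer 2 Mb, window ends against opposite ends stood at 13.1 and 5.85 in parental wild-type IgG, 10.4 and 4.96 in resistant wild-type IgG and 8.98 and 6.50 in resistant METTL7A MYC-tag. The other 3 MYC-tag comparisons were closer, at 7.16 and 5.60 in parental wild-type, 6.51 and 5.34 in parental METTL7A and 4.997 and 3.75 in resistant wild-type cells. Opposite ends, picked by their place alone, were therefore also above 1 in these 6 lists. At the window limits, 106 peaks lay within 0.5 Mb inside the inner edges and 48 within 0.5 Mb outside them, over all lists. The resistant METTL7A MYC-tag list gave 46 of the 106 and 23 of the 48. Of its peaks, 27 lay between 2.7 and 3 Mb on chromosome 11, next to the inner edge of that window. The drop is therefore not shown for each edge.

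**Figure D2:**
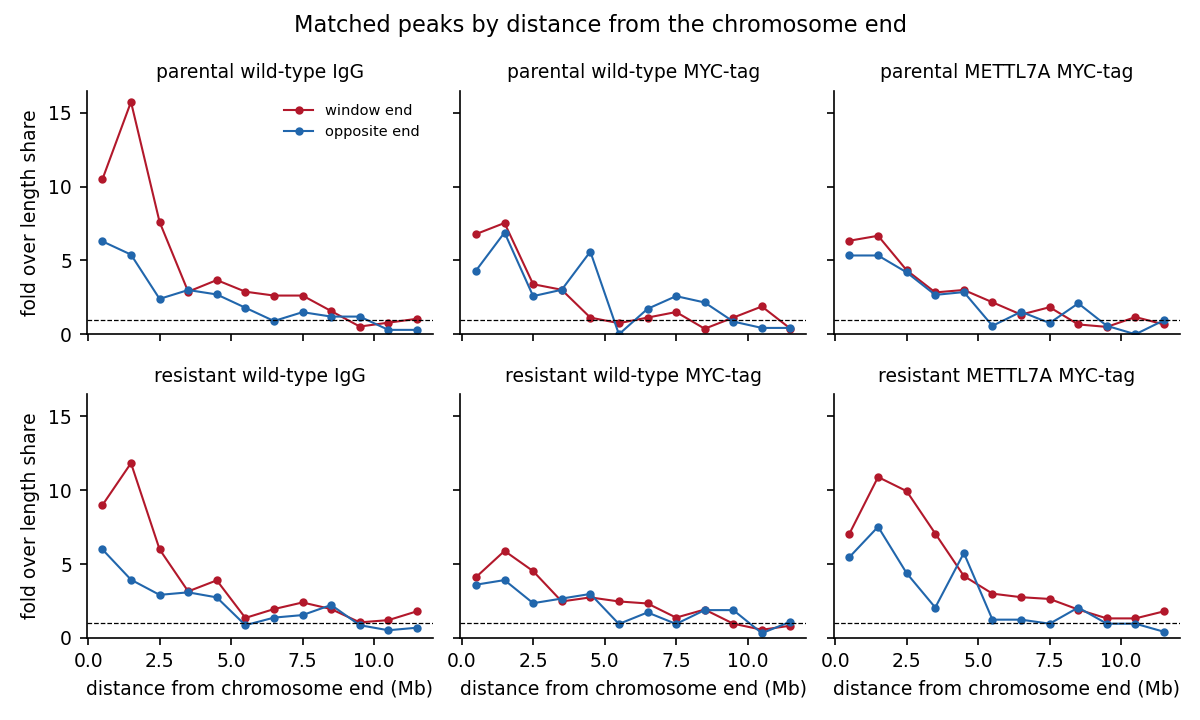
Fold over the share of length (y axis) in steps of 1 Mb from the chromosome end (x axis, Mb), for the 8 window ends (red) and 7 opposite ends (blue) in the 6 long lists. Window ends peak in the second Mb, at 15.7 in parental wild-type IgG, and opposite ends are above 1 over the first 4 Mb.

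The 8 windows differed widely among themselves. The chromosome 9 window held 274 of the 978 peaks (28.0%), the chromosome 20 window 192 (19.6%), the chromosome 17 window 182 (18.6%) and the chromosome 11 window 124 (12.7%). Those on chromosomes 16, 1, 19 and 22 held 76, 53, 51 and 26. Per length, 20q13.33 stood highest in each of the 6 long lists except resistant wild-type MYC-tag, where 11p15.5 did (9.49). With IgG its fold over length was 20.1 in parental (28 peaks) and 12.7 in resistant wild-type cells (31). With the MYC-tag antibody it was 12.4 (12 peaks) and 7.13 (19) in wild-type cells, parental first, and 18.3 (40) and 20.3 (62) in METTL7A cells. For 9q34.2-q34.3 the IgG values were 17.2 and 10.7, and the MYC-tag values were 9.62 and 6.11 in wild-type and 12.2 and 18.3 in METTL7A cells. The contrast with the rest of the chromosome was also widest on chromosome 9, where window peaks per Mb were 11.3 to 34.24 times those elsewhere on it in these lists.

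In 3 windows the folds of the wild-type IgG lists stood above those of all MYC-tag lists. At 19p13.3 the wild-type IgG lists had 8 and 27 peaks (3.36 and 6.47 times the share of length in parental and resistant cells), while the 4 MYC-tag lists had 1, 1, 6 and 7 peaks and lay between 0.267 and 1.34. At 16p13.3 the wild-type IgG lists stood at 11.5 and 6.29, and the MYC-tag lists between 1.00 and 3.77. At 1p36.3 they stood at 4.72 and 5.99, and the MYC-tag lists between 0.667 and 2.74. Within wild-type cells of the same state, the intervals of both antibodies overlapped in these windows, except at 19p13.3 in resistant cells. There they were 4.27 to 9.39 with IgG and 0.483 to 2.86 with the MYC-tag antibody. These 3 windows together made up 26.4% (19.5 to 34.22) and 32.9% (26.5 to 39.7) of the window peaks in wild-type IgG of parental and resistant cells. They made up 14.3% (6.38 to 26.2) and 19.7% (13.2 to 27.7) in wild-type MYC-tag, and 4.51% (1.67 to 9.56) and 10.4% (7.15 to 14.4) in METTL7A MYC-tag. In each state the intervals of wild-type IgG and wild-type MYC-tag overlapped, while that of METTL7A MYC-tag lay below that of wild-type IgG. The 3 were grouped after their counts were seen. At 20q13.33 and 9q34.2-q34.3 the resistant METTL7A MYC-tag list (15.6 to 26.0 and 14.9 to 22.3) and parental wild-type IgG (13.4 to 29.0 and 12.4 to 23.1) had overlapping intervals.

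**Figure D3:**
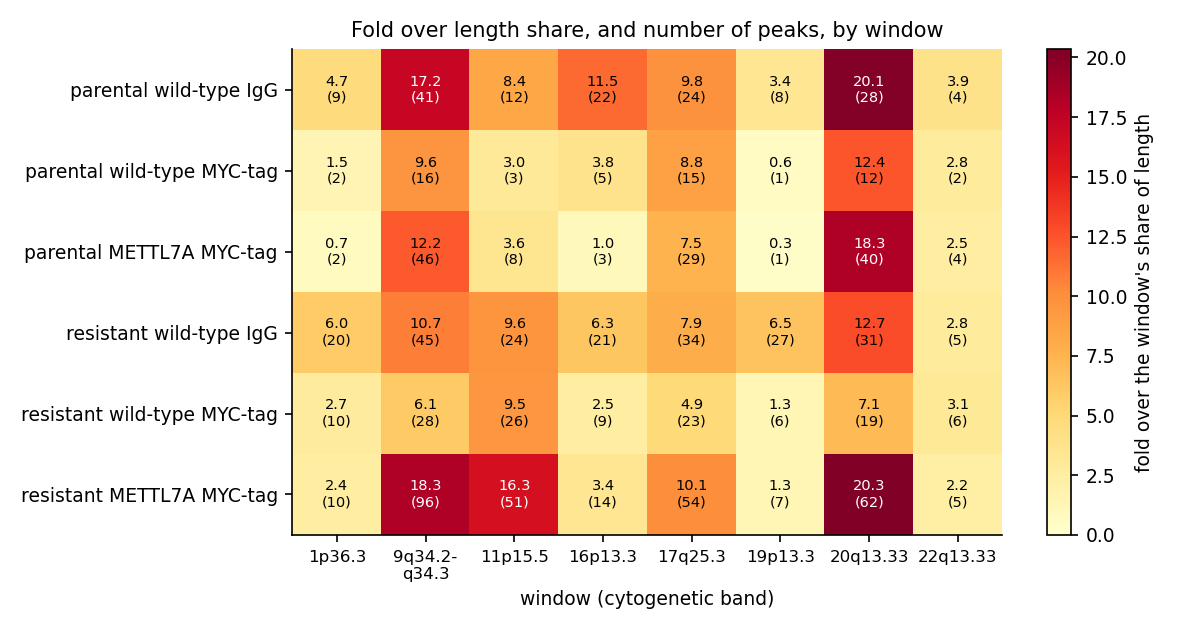
Fold over the window's share of length (colour and upper number) and number of matched peaks (in brackets) for the 8 windows (columns, by band) in the 6 long lists (rows). The 20q13.33 column reaches 20.1 and 20.3, and the 19p13.3 column stays between 0.267 and 1.34 in the MYC-tag lists.

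On chromosome 11 the peaks of resistant cells gathered in a short stretch. Between 2.7 and 3 Mb the resistant METTL7A MYC-tag list had 27 of its 51 window peaks on that chromosome. The resistant wild-type MYC-tag list had 12 of 26 there and the resistant wild-type IgG list 10 of 24. Neither METTL7A IgG list had a peak in the chromosome 11 window. The parental lists had 1 of 12 (wild-type IgG), 0 of 3 (wild-type MYC-tag) and 1 of 8 (METTL7A MYC-tag). Heights in the stretch ran from 3.06 to 6.72 in the resistant lists. The stretch, chosen after its counts were seen, was thus occupied in the long resistant lists of both antibodies. It held 0.853% of the resistant METTL7A MYC-tag list, 0.434% of wild-type MYC-tag and 0.395% of wild-type IgG. With 96 peaks, the resistant METTL7A IgG list is too short for its count of 0 to tell the genotypes apart. Copy number was not measured here, and its part in these counts was not tested.

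Window peaks were low. Their median height was 3.70 (parental) and 4.36 (resistant) with IgG in wild-type cells, 4.41 and 3.78 with the MYC-tag antibody in wild-type cells and 4.38 and 4.32 with it in METTL7A cells, against a lowest height of any peak of 3.002. Their median width lay between 616 bp (parental wild-type IgG) and 753.5 bp (parental wild-type MYC-tag). Compared with the other peaks of the same list, the median height in the windows differed by 0 in parental wild-type IgG and by +0.01 in parental wild-type MYC-tag. It differed by −0.16 and −0.37 in the resistant wild-type lists, IgG first, and by −0.39 and −0.17 in the METTL7A MYC-tag lists, parental first. For parental METTL7A MYC-tag the interval of that difference lay below 0 (−0.72 to −0.12), while the intervals of the other 5 reached or spanned 0. Many heights were shared to the last digit: 34 of the 127 window peaks stood at 3.24 in resistant wild-type MYC-tag, and 24 of the 148 at 3.32 in parental wild-type IgG. The rank correlation of height between replicates over window peaks, which share libraries and depth, ran from −0.078 (127 peaks, resistant wild-type MYC-tag) to 0.331 (56 peaks, parental wild-type MYC-tag). Over the other peaks of the long lists it ran from 0.123 (resistant wild-type IgG) to 0.237 (parental METTL7A MYC-tag). With chromosome 7 left out it ran from 0.083 (parental wild-type IgG) to 0.116 (parental METTL7A MYC-tag), so low values were not particular to the windows.

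Over whole lists, the windows' share was larger among the lowest peaks than among the highest ones in each of the 6 long lists, with intervals that overlapped in all but resistant METTL7A MYC-tag. In parental wild-type IgG it went from 13.6% (10.2 to 17.5) in the lowest of 4 equal groups by height to 8.03% (5.45 to 11.3) in the highest. In parental METTL7A MYC-tag it went from 7.22% (5.23 to 9.67) to 3.52% (2.16 to 5.39), and in resistant METTL7A MYC-tag from 11.2% (9.12 to 13.6) to 6.95% (5.28 to 8.95). In the resistant list 35 of the 299 window peaks stood at 5.31, the limit between the third and highest groups. Ties at a limit were split by chromosome name sorted as text. For every window but that of chromosome 9, this order works towards the reported fall. Limits also fell on tied heights in other lists, such as 3.32 in parental wild-type IgG. No other split was tried, so how much of the fall, or of the separate intervals, rests on ties is unknown. Resistant wild-type IgG went only from 8.53% to 7.44%, and parental wild-type MYC-tag from 4.76% to 3.98% with its maximum of 7.97% in the third group. With chromosome 7 left out, parental wild-type MYC-tag turned to 4.93% in the lowest and 6.90% in the highest group, parental METTL7A MYC-tag went from 8.02% (5.77 to 10.8) to 5.56% (3.69 to 7.98) and resistant METTL7A MYC-tag from 12.5% (10.1 to 15.2) to 9.25% (7.21 to 11.6), so that no list then had separate intervals. That alternative was chosen after seeing the data. Even the highest group stayed above the windows' 1.03% of length in all 6 lists. Among the 100 highest peaks of a list, 6 lay in the windows in parental wild-type IgG and 3 in parental wild-type MYC-tag, 1 each in both lists of resistant wild-type cells and 0 in both METTL7A MYC-tag lists. The whole-list shares were 10.2% and 5.57% in parental wild-type IgG and MYC-tag, and 8.19% and 4.59% in the resistant ones. They were 5.86% and 9.45% in parental and resistant METTL7A MYC-tag. These counts among the highest peaks were not recomputed with chromosome 7 left out.

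**Figure D4:**
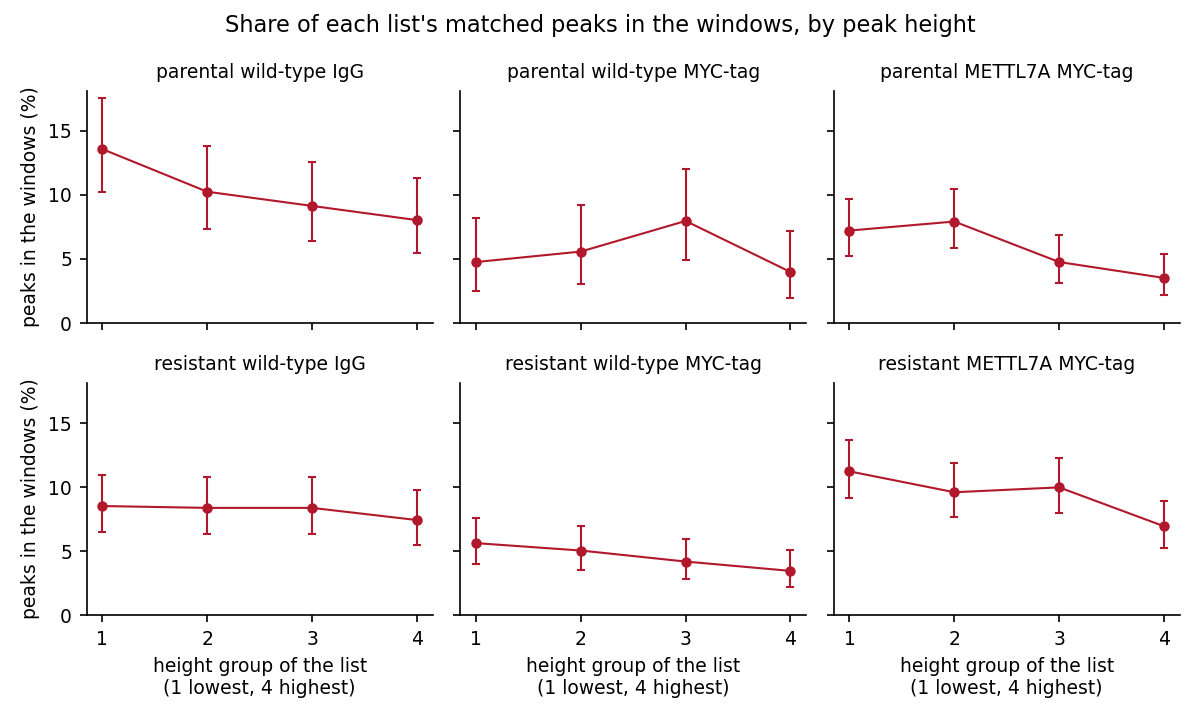
Share of a list's matched peaks that lie in the windows (y axis, %, exact 95% intervals) in 4 equal groups of that list by height (x axis), for the 6 long lists. Ties at a limit follow chromosome names sorted as text, then the start, an order that works towards a fall for every window but that of chromosome 9. The share falls from 13.6% to 8.03% in parental wild-type IgG and from 11.2% to 6.95% in resistant METTL7A MYC-tag.

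Reproducible peaks were nearly absent. None of the window peaks reached a global IDR of 0.05 in 7 of the 8 lists, where the whole lists passed it at 2.15% (parental wild-type IgG), 2.59% (parental wild-type MYC-tag), 6.38% (parental METTL7A MYC-tag), 0.791% (resistant wild-type IgG), 2.28% (resistant wild-type MYC-tag), 13.5% (resistant METTL7A IgG) and 3.29% (resistant METTL7A MYC-tag). A count of 0 among the 145 reproducible peaks of the parental METTL7A MYC-tag list allows a share in the windows of up to 2.07%, taking 3 counts of the total as the limit. Among the 104 of the resistant METTL7A MYC-tag list it allows up to 2.88%, and among the 63, 31, 26 and 20 of the wild-type lists up to 4.76% (resistant MYC-tag), 9.68% (parental IgG), 11.5% (parental MYC-tag) and 15% (resistant IgG). The exact intervals, which are wider than this limit, reached 2.51% in parental and 3.48% in resistant METTL7A MYC-tag, below the windows' shares of matched peaks (5.86% and 9.45%). With chromosome 7 left out, 53 and 30 reproducible peaks remained in these lists. Their intervals then reached 6.72% and 11.6%, against shares of matched peaks of 6.85% (5.76 to 8.06) and 10.6% (9.51 to 11.8), and did not separate from them. All of these limits are above 1.03%, so a share equal to that of length was not detectable at these counts.

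The parental METTL7A IgG list was the exception, with 4 of its 6 window peaks at an IDR of 0.05 or less, but 75.7% of that list of 70 peaks did so. The highest window peak ranked 2 in its list. The one at 16:2500887–2501505 (619 bp) had −log10 p of 6.13 and 5.04 in its replicates, and the one at 17:76879889–76880250 (362 bp) had 5.39 and 4.996. The other pair, at 9:136521250–136521687 and 17:79064414–79064820, had 5.11 and 3.32, and 9.26 and 3.25. An IDR is set within a list, so the same height passes in 1 list and not in another.

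The highest window peak of all lists lay on chromosome 17 in resistant wild-type IgG, at 17:77178268–77180188 (1921 bp), with −log10 p of 12.4 and 13.9 and a rank of 30 among 2529 peaks. The next highest peaks of that list were at 20:61808378–61809568 (9.36 and 8.87) and 19:1008985–1009544 (9.75 and 8.79). In parental wild-type IgG the leading peak was at 16:733905–734684 (6.94 and 9.40), followed by 17:79367298–79368016 (6.94 and 6.46) and 9:139622829–139623264 (6.33 and 6.43). None of these 6 control peaks passed the IDR threshold.

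Among MYC-tag peaks, the leading one in parental METTL7A cells was at 9:139127523–139128689 (8.33 and 8.36), ranked 154 of 2271, followed by 17:80110136–80110919 (7.50 and 8.36) and 20:60893511–60894425 (8.14 and 7.11). In resistant METTL7A cells they were at 16:1053613–1054155 (11.3 and 8.21), ranked 131 of 3165, 9:139723044–139724971 (8.20 and 8.39) and 9:139916621–139917505 (7.99 and 8.21). Parental wild-type cells had 20:60987533–60988526 (8.68 and 7.82), 16:771025–772072 and 17:79370540–79370982 (both 7.28 and 7.82). Resistant wild-type cells had 9:139242216–139243807 (8.31 and 7.46), 11:2937741–2938227 (6.27 and 7.104) and 11:2736362–2739393 (6.16 and 9.06). The leading peaks of the 4 MYC-tag lists thus lay at different places, and in some of them 1 replicate stood well above the other. The second METTL7A IgG list had only 2 window peaks, at 17:79045619–79046076 (3.75 and 4.73) and 19:474407–475233 (3.24 and 4.36).

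Joined wherever they overlapped by at least 1 bp, the window peaks formed 870 positions, of which 777 (89.3%) were in 1 list, 80 in 2 and 13 in 3. None was in 4 or more lists, which allows a share of up to 0.345% (3 counts). Elsewhere 138 of 10262 positions (1.34%) were in 4 or more, and 51 of 9295 (0.549%) with chromosome 7 left out. The windows were shared at a coarser grain: of their 315 bins of 100 kb, 241 held a peak of some list, 57 held peaks of 4 or more lists and 22 of 5 or more. That is 23.7% of the bins with a peak, which held 4.06 peaks on average, against 6.28% elsewhere, where a bin with a peak held 2.16 (5.97% and 2.01 with chromosome 7 left out). The bin at 79.0 to 79.1 Mb of chromosome 17 held 14 peaks from 7 lists, and it was picked out after its counts were seen.

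Of the 13 positions in 3 lists, the 10 with the highest peaks are described. At 16:770601–772072 the peaks came from both wild-type IgG lists (6.94 and 6.29 in parental, 3.17 and 5.78 in resistant cells) and the parental wild-type MYC-tag list. At 9:140328745–140331648 they came from resistant wild-type IgG (6.98 and 7.13), resistant wild-type MYC-tag (6.15 and 3.06) and parental METTL7A MYC-tag (10.3 and 4.65). At 11:2796440–2798285, inside the crowded stretch of 11p15.5, all 3 were resistant lists: wild-type IgG (4.95 and 15.6), wild-type MYC-tag (8.11 and 6.15) and METTL7A MYC-tag (3.99 and 5.98). The other 7 lay at 17:79366861–79368016, 9:139635398–139637787, 11:2936986–2938330, 22:50963766–50965068, 17:78085514–78087171, 9:138635442–138636824 and 20:61273495–61274879. An IgG list took part in 11 of the 13. The same count was not made for positions elsewhere, so it cannot be read as a trait of the windows. The positions without an IgG list, at 9:138635442–138636824 and 20:61781594–61783375, were held by the same MYC-tag lists. Heights at the first were 3.10 and 5.92 in parental METTL7A, 5.31 and 5.69 in resistant METTL7A and 7.20 and 5.07 in resistant wild-type cells.

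**Figure D5:**
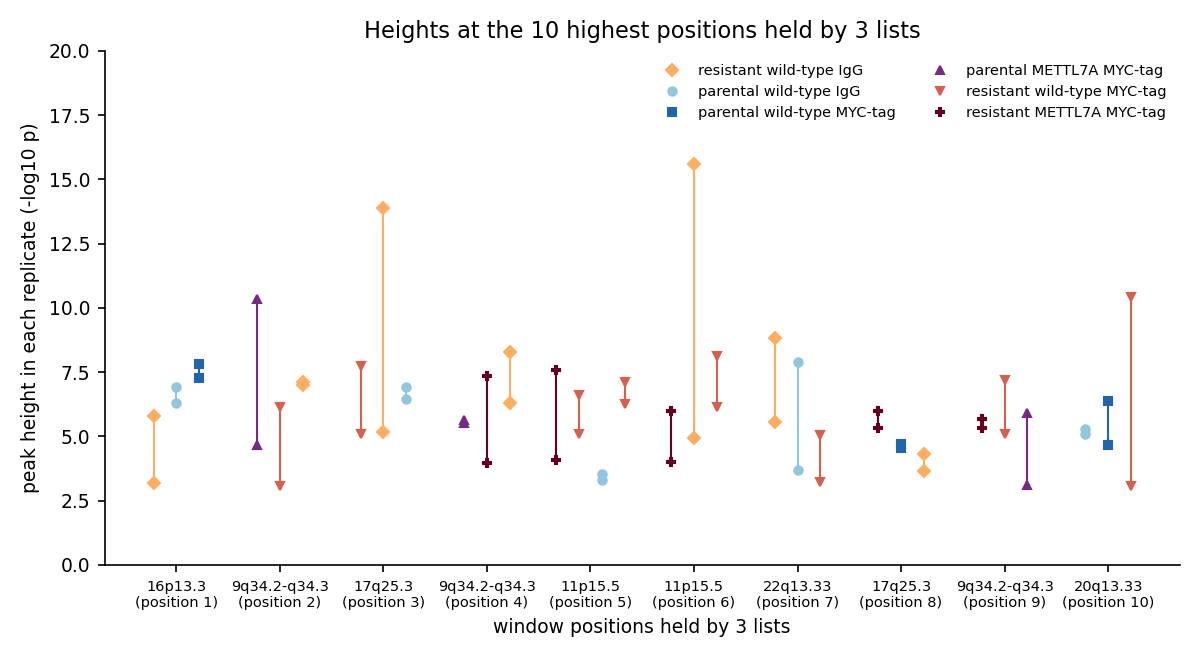
Height in each replicate (y axis, −log10 p) of every peak at the 10 highest of the 13 window positions held by 3 lists (x axis, in the order of their highest peak); a line joins the 2 replicates of a list, and symbols mark the lists. IgG lists appear at 9 of the 10 positions, a count not made for positions elsewhere. Replicates of 1 peak differ by up to the gap between 4.95 and 15.6.

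Overlap with IgG of the same cells did not differ detectably between the windows and the whole list, whose share lay inside the interval of the windows in all 4 pairs. In parental wild-type cells 7 of 56 MYC-tag window peaks (12.5%, 5.18 to 24.1) overlapped an IgG peak, against 15.2% of all MYC-tag peaks; those were 7 of the 148 IgG window peaks (4.73%). In resistant wild-type cells 13 of 127 did (10.2%, 5.56 to 16.9), against 12.8%. In METTL7A cells, whose IgG lists are short, 1 of 133 and 1 of 299 did, against 0.396% and 0.695%. Against the wild-type IgG lists of the same state, 5 of 133 (3.76%, 1.23 to 8.56) and 13 of 299 (4.35%, 2.34 to 7.32) METTL7A MYC-tag window peaks overlapped, against 5.02% and 5.72% of all.

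Overlap between lists of the same antibody was rarer in the windows than over whole lists, except between the METTL7A MYC-tag lists of both states. None of the 133 parental METTL7A window peaks (0 to 2.74%) overlapped a wild-type MYC-tag peak of the same state, against 6.61% of all peaks of that list. In resistant cells 11 of 299 did (3.68%, 1.85 to 6.49), against 8.21%. Between states, 2 of 56 parental wild-type MYC-tag window peaks (3.57%, 0.435 to 12.3) overlapped a resistant one, against 18.7%. Wild-type IgG gave 10 of 148 (6.76%, 3.29 to 12.1), against 15%. METTL7A MYC-tag was nearer to its whole list, with 20 of 133 (15.04%, 9.43 to 22.3) against 19.9%, and those were 7.02% of the 299 resistant window peaks. In the first 4 of these 5 comparisons the whole-list share lay above the interval of the windows, and in the last it lay inside. The whole lists include chromosome 7, and these overlaps were not recomputed without it. Positions in 2 or more of any lists made up 10.7% in the windows and 13.2% elsewhere, or 11.6% elsewhere with chromosome 7 left out. The part of chromosome 7 in these differences was not tested.

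Positions held only by both METTL7A MYC-tag lists numbered 16 of the 80 window positions in 2 lists (20.0%), against 212 of 1015 elsewhere (20.9%). The share in the windows was close to that elsewhere. One, named after its values were seen, lay at 20:60419678–60420918, with −log10 p of 6.79 and 7.11 in parental and 6.72 and 5.66 in resistant cells. Another, at 9:139127140–139128689, held the leading parental peak and a resistant peak of 6.66 and 4.49. At 16:1052912–1054155 the leading resistant peak met a parental one of 3.10 and 4.78. None of these peaks passed the IDR threshold in either list.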

How the data were processed

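The members and comparisons were chosen with earlier results of these data known. Libraries were sheared, precipitated and sequenced in pairs of replicates, per the labels' protocols. The submitters' processing notes name the build GRCh37 and, among other tools, the aligner Bowtie2 2.4.2 and the peak caller MACS2 2.2.7.1. The control library and the handling of duplicates were not given in the sources used here. The deposited lists have 20 columns in the layout of an IDR run on 2 peak sets, and they give the authors' −log10 p-values for the matched peak and each replicate, −log10 of the local and global IDR, and a scaled IDR score. Which replicate fills which column is not given.

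Peak starts were made 1-based, windows were assigned by midpoint, and length was counted up to the furthest peak of each chromosome. Shares have exact (Clopper-Pearson) intervals and odds ratios exact conditional intervals (SciPy 1.17.1). Median differences have an order-statistic interval of the window median. No p-values were computed, since the shares chose the windows and each list combines its replicates. Positions named are those with a reproducible peak, the 3 highest peaks of each list and the 10 positions in most lists; further ones are marked as chosen later. Scripts were tested on simulated data. Genes of bands were checked by symbol and chromosome in the RefSeq table; genes were not assigned to peaks, and no sequence was used here.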

Additional observations from a re-analysis of the deposited data

Results flagged for a closer look

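Some contrasts had ratios on opposite sides of 1 in lists that differ in 1 factor. Each group has 1 list, and none of these differences was tested. The odds that a MYC-tag peak rather than an IgG peak of the same cells lay in the windows had a ratio of 0.664 in parental METTL7A, 0.540 in resistant wild-type and 4.90 in resistant METTL7A cells. The ratio of METTL7A over wild-type was 0.821 for IgG and 1.05 for MYC-tag in parental cells, and 0.239 for IgG and 2.17 for MYC-tag in resistant cells. The ratio of resistant over parental was 0.815 for wild-type MYC-tag, 0.229 for METTL7A IgG and 1.68 for METTL7A MYC-tag. The intervals of 0.664, 0.821, 1.05, 0.815 and 0.229 (0.0219 to 1.33) span 1, so these values show no direction as reported. With the IgG lists of both genotypes joined, the ratio of 0.664 was 0.549 (0.428 to 0.705). The ratio of 1.05 was 0.991 with chromosome 7 left out and 0.852 with each 100 kb bin counted once. Of the ratios above, 0.664, 0.229, 0.239, 0.821 and 4.90 rest on a METTL7A IgG list with 6 or 2 window peaks. The resistant METTL7A MYC-tag list enters each of the ratios 4.90, 2.17 and 1.68.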

How the results depend on the processing

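Of 123 values recomputed under alternatives, 93 stayed within the 95% interval of the reported value and 30 left it or turned. Of the 53 ratios among them, 6 crossed to the other side of 1, 5 of which had an interval spanning 1 as reported; in 9 the interval came to span 1, and in 4 it came to exclude it. No paired analysis was possible because each list combines both replicates of its group; leaving out a replicate could not be run for the same reason. Another 11 ratios had no window peak in the denominator and gave no value. With assembly lengths the folds, and with chromosome 7 left out the folds, ratios and height differences, stayed within their intervals.

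With reproducible peaks only (IDR of 0.05 or less), the fold over length was 0 in every list but parental METTL7A IgG, and so were, for the METTL7A lists, the parental ratio of MYC-tag over IgG and the IgG ratio of resistant over parental, both 0. With a height of 5 or more in both replicates, the fold was 7.32 in parental wild-type IgG, 4.01 in parental wild-type MYC-tag, 48.5 in parental METTL7A IgG (1 of 2 peaks), 3.93 in parental METTL7A MYC-tag, 3.02 in resistant wild-type MYC-tag, 0 in resistant METTL7A IgG and 7.48 in resistant METTL7A MYC-tag. The same setting gave a ratio of MYC-tag over IgG of 0.0428 in parental METTL7A and 0.391 in resistant wild-type cells. It gave a METTL7A over wild-type ratio of 11.98 for parental and 0 for resistant IgG, and a resistant over parental ratio of 0 for METTL7A IgG. For wild-type IgG the resistant over parental ratio turned from 0.781 to 1.01. These values rest on fewer peaks by construction; the cause beyond that was not tested.

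Without the chromosome 19 window the fold was 6.72 in parental and 10.7 in resistant METTL7A MYC-tag. With each 100 kb bin counted once it was 7.80 in parental wild-type IgG, 5.996 in resistant wild-type IgG and 6.98 in resistant METTL7A MYC-tag, and the parental wild-type ratio of MYC-tag over IgG was 0.752 (0.515 to 1.09). Joining the IgG lists of both genotypes gave 1.21 in resistant METTL7A cells. In parental METTL7A cells it gave 0.549 (0.428 to 0.705), a value within the reported interval. With the mean of both replicates as height, the resistant wild-type IgG median differed by −0.26. The count of 0 positions in 4 or more lists and the overlaps with IgG were the same under their alternatives.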
